A study of Caenorhabditis elegans with 2 samples.

Results

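The DNAJ and HSP70 chaperone genes of Caenorhabditis elegans were examined for promoter binding by JUN-1, the worm Jun protein. They comprise the 29 protein-coding genes named dnj with a number, together with hsp-1, hsp-6, hsp-60, hsp-70, hsp-110, bag-1, unc-23 and the heat shock factor gene hsf-1, which makes 37 of 19973 nuclear protein-coding genes. Chromatin bound by JUN-1 was immunoprecipitated and sequenced (ChIP-seq) from entire larvae at the first stage (L1) of strain OP234, genotype unc-119(ed3) III; wgIs234, with males and females pooled and an unknown age. The labels describe an inserted eGFP-tagged jun-1, and whether the animals also carry their own jun-1 is not stated there. Both biological replicates come from this strain and form the only group, so no untreated, stressed or untagged group was compared. A gene is called bound where a summit of the IDR-thresholded list lies from 1000 bp upstream to 200 bp downstream of its start. IDR is the irreproducible discovery rate, a measure of how alike peaks rank between replicates. This records a position and does not show that JUN-1 controls the gene.

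HSP70 chaperones bind and release unfolded protein in a cycle driven by ATP. J proteins, encoded by the dnj genes, bring substrates to HSP70 and trigger ATP hydrolysis, and nucleotide exchange factors such as BAG-domain and HSP110 proteins then let ADP leave so that the substrate is released. Heat shock factor 1 switches on many of these genes under stress by binding heat shock elements, which are inverted repeats of the unit GAA. Jun proteins dimerise with other basic leucine zipper proteins and are best known for binding the AP-1 element TGACTCA.

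The DNA under some of the chaperone peaks is shown first, chosen for a strong signal or for a heat shock element, because the elements are counted later. Each line is the 200 bp window centred on a summit, 5′ to 3′ on the strand of the chaperone gene, from the RefSeq copy of WBcel235, the assembly that ce11 names. The first 3 windows are shown for their heat shock elements. The windows are III:1619021-1619220 upstream of hsp-60, III:8447067-8447266 upstream of hsp-110 and V:8936235-8936434 at the start of unc-23. Capitals mark a 3-unit heat shock element in hsp-60 and hsp-110. In unc-23 they mark the recurrent worm promoter element CTGCGTCTC and a heat shock element of the form TTCNNGAA.
hsp-60: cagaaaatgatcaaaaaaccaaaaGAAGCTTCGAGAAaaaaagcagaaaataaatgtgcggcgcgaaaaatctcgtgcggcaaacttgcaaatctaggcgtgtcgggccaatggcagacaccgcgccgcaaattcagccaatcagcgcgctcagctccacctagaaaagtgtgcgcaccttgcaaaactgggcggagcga
hsp-110: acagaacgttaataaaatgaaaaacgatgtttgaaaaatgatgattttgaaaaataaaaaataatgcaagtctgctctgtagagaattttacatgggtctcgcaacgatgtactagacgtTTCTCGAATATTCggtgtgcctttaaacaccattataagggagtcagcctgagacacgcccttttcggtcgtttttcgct
unc-23: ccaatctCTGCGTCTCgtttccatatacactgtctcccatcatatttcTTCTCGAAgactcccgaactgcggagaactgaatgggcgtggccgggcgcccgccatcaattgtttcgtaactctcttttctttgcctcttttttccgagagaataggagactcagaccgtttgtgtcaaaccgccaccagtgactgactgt

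The next windows belong to strong peaks without TTCNNGAA or the 3-unit element. A pair of units in the other order, GAA before TTC, was not searched for and can be seen in the hsp-1 and dnj-13 windows. They are IV:17278461-17278660 for hsp-1, II:11545394-11545593 for dnj-13, II:4851722-4851921 for dnj-9 and X:4711987-4712186 for dnj-14. Capitals in hsp-1 and dnj-13 mark TCTCTCTC, which is GAGAGAGA on the other strand. Those of dnj-9 and dnj-14 also hold none of the AP-1, CRE, GAGAGAGA or CTGCGTCTC elements.
hsp-1: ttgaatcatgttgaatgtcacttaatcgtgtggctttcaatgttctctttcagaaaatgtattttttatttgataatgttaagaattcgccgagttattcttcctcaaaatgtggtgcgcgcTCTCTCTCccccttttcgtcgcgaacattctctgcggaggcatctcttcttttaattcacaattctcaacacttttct
dnj-13: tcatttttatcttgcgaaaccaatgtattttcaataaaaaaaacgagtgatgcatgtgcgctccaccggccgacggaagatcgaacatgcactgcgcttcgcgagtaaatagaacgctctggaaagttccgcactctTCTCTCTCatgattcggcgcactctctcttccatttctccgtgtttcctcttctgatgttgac
dnj-9: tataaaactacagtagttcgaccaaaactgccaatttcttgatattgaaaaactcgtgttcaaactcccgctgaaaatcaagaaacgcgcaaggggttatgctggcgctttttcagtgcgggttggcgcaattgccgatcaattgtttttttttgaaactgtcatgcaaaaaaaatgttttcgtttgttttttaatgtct
dnj-14: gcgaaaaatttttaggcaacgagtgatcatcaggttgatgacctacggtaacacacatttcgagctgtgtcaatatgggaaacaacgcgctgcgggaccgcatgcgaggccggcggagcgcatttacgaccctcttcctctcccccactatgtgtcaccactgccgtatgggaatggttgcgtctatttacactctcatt

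Of the 37 chaperone genes, 14 were bound (37.8%, Wilson 95% interval 24.1% to 53.9%), against 8.42% of all protein-coding genes. The dnj genes had 8 of 29 bound (27.6%, interval 14.7% to 45.7%) and the other members 6 of 8 (75%, interval 40.9% to 92.9%). Bound genes included every cytosolic J protein gene of the list (dnj-12, dnj-13 and dnj-19), both BAG-type cochaperone genes (bag-1 and unc-23), the mitochondrial chaperonin gene hsp-60, and 3 of the 4 HSP70 and HSP110 genes (hsp-1, hsp-6 and hsp-110). None of the genes listed for J proteins of the endoplasmic reticulum (0 of 4) or of mitochondria (0 of 2) was bound, and neither was hsf-1. Such counts do not set these genes apart from the 8.42% of all protein-coding genes. Another 17 dnj genes were given no role, so the groups do not cover every J protein of a compartment. Intervals cover counting error over genes only and hold no error of the experiment. The genes were chosen with earlier results of these data known, so the intervals are no test against 8.42%. The groups of 1 to 4 genes are too small to be told apart.

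**Figure D1:**
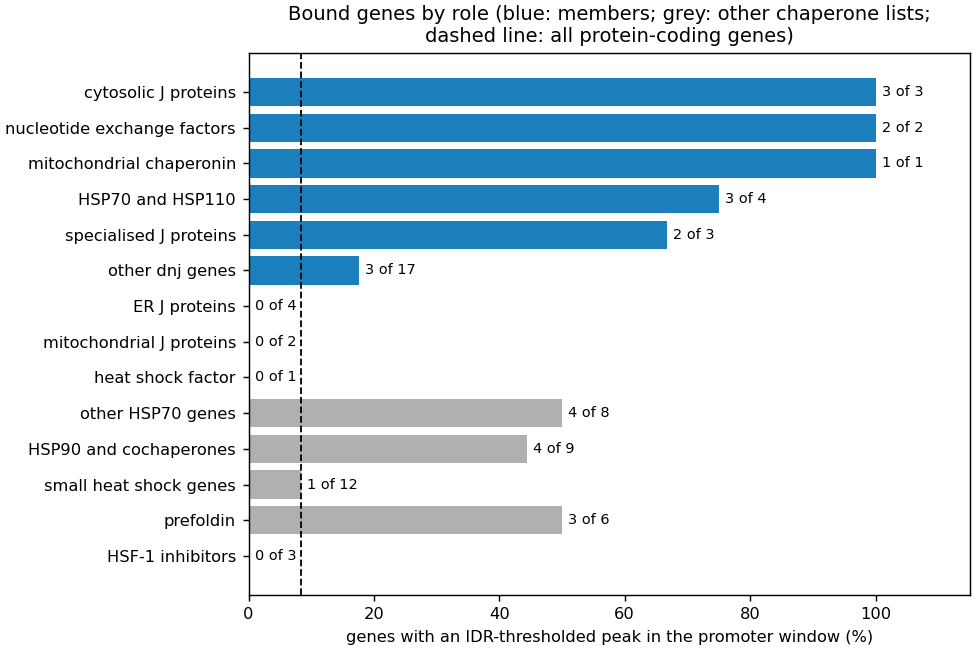
Horizontal bars give the percentage of genes with an IDR-thresholded peak in the promoter window, by role, with the number bound of the number in each group beside the bar. Blue bars are the 37 members, grey bars other chaperone lists, and the dashed line is the 8.42% of all protein-coding genes. Cytosolic J protein genes stand at 3 of 3 and J protein genes of the endoplasmic reticulum at 0 of 4.

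The peaks at these genes lay in the upper part of the list. The signal is the authors' own value per peak, has no stated unit and ranks peaks within a list. The 14 peaks had a median signal of 109.1, from 35.2 at hsp-6 to 199.7 at hsp-60. The 1278 peaks in any coding promoter window had a median of 46.4 and quartiles of 35.6 and 72.5. Of the 14 chaperone peaks, 12 were above that median and 7 were among the strongest 230 of the 2305 peaks. The median was 91.7 at the dnj genes and 135.3 at the other members. The IDR-thresholded list consists of the 2305 strongest peaks of the list called on both replicates together, with 28.4 as its lowest signal. The members nearest that limit were hsp-6 (35.2) and dnj-28 (36.3) inside it and dnj-1 (24.4) and dnj-5 (18.8) outside. Whole larvae were used, so a strong peak in few cells and a weaker one in many cannot be told apart.

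**Figure D2:**
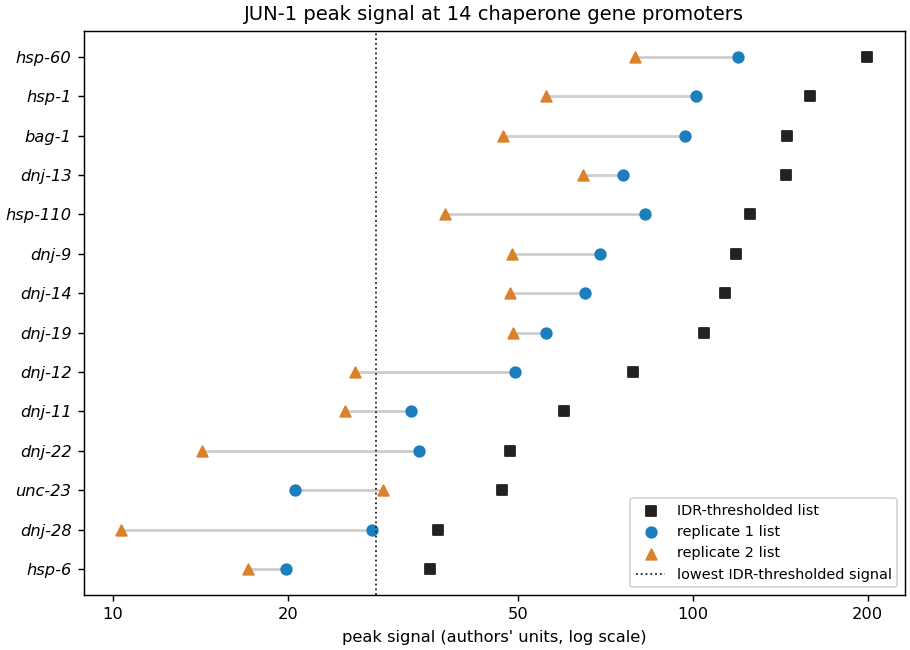
Each row is a bound chaperone gene and the x axis is the peak signal in the authors' units on a log scale. Black squares are the IDR-thresholded list, blue circles the replicate 1 list, orange triangles the replicate 2 list, and the dotted line is the lowest IDR-thresholded signal of 28.4. The circle lies to the right of the triangle for 13 genes, and unc-23 is the exception.

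Among the HSP70 and HSP110 genes of the group, the strongest peak belonged to hsp-1, which encodes the constitutive cytosolic HSP70. It lay at IV:17278486-17278602 with its summit 398 bp upstream of the start, a signal of 159.0 and rank 88. Its signal was 101.1 in the replicate 1 list and 55.8 in the replicate 2 list, and the summits of both were within 2 bp of each other. No other coding promoter window held this summit, but the start of the annotated non-coding RNA gene F26D10.23 was nearer, at 148 bp.

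The gene hsp-110, for the HSP110-type exchange factor of HSP70, had a peak at III:8446995-8447338 with a signal of 125.4 and rank 164. Replicate 1 gave 82.5 and replicate 2 gave 37.3. The summit was 258 bp upstream of hsp-110 and 186 bp upstream of rpn-3, a proteasome subunit gene on the opposite strand. The peak therefore counts for both genes, and the start of rpn-3 is the nearer.

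The mitochondrial HSP70 gene hsp-6, a marker of the mitochondrial unfolded protein response, had the weakest of the 14 peaks. It lay at V:4827038-4827381 with a signal of 35.2 and rank 1694, and 19.9 and 17.1 in replicates 1 and 2. Its summit was 450 bp upstream of hsp-6 but 150 bp from the start of C37H5.5, and the replicate summits were 83 bp apart, the widest shift among the 14. The heat-inducible gene hsp-70 had no summit in its window in any list. The nearest IDR-thresholded summit was 5325 bp away, in the promoter window of cbl-1.

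The chaperonin gene hsp-60, whose protein folds imported proteins in mitochondria, carried the strongest chaperone peak. It lay at III:1619063-1619223, had a signal of 199.7 and ranked 47 of 2305, with 119.3 in replicate 1 and 79.4 in replicate 2. The summit was 621 bp upstream of hsp-60 and 192 bp upstream of Y22D7AL.10 on the opposite strand, which RefSeq annotates as a mitochondrial heat shock protein. In human cells the genes of the mitochondrial chaperonin and its cochaperonin also lie head to head. In the narrower window of 500 bp upstream to 100 bp downstream, hsp-60 is no longer bound.

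Both BAG-type genes had peaks that no other coding promoter window shared. At bag-1, which encodes a BAG-domain exchange factor, the peak I:6564454-6564797 had a signal of 145.1, with 96.9 in replicate 1 and 47.0 in replicate 2, and its summit was 175 bp upstream. The peak at unc-23, the BAG2-type gene known for keeping body wall muscle attached, was weaker, with a signal of 46.9 at V:8936163-8936506 and its summit 24 bp upstream. It was the exception among the 14 in being higher in replicate 2 (29.2) than in replicate 1 (20.6). Its replicate summits were 76 bp apart, and that of replicate 1 was 49 bp downstream of the start.

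The cytosolic J proteins DNJ-12, DNJ-13 and DNJ-19 are general partners of cytosolic HSP70. The peak at dnj-13, the DNAJB1-type gene, was the strongest of any dnj gene (II:11545322-11545665, signal 144.4, rank 121). Its replicate values were 75.9 and 64.6, and its summit was 207 bp upstream, inside an intron of dhgd-1. The peak is also in the window of F54D5.9, with the summit 666 bp upstream of that gene. At dnj-19 the peak V:5505101-5505444 had a signal of 104.5, with 55.8 and 48.9 in replicates 1 and 2. Its summit was 416 bp upstream of dnj-19 but 20 bp inside nhr-47, a nuclear hormone receptor gene, in its 5′ UTR. At dnj-12 the peak I:14756672-14757015 had a signal of 78.9, with 49.4 and 26.1. Its summit was 60 bp upstream of dnj-12 and 432 bp upstream of mtx-1, the metaxin gene of mitochondrial import.

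Of the specialised J protein genes, dnj-14 and dnj-11 were bound and dnj-25 was not. The gene dnj-14 encodes the cysteine string protein of synaptic vesicles, and its peak X:4711915-4712258 had a signal of 113.7, with 65.0 and 48.3 in replicates 1 and 2. That summit was 339 bp upstream of dnj-14 and 192 bp from glit-1, the nearer start. The peak at dnj-11, of the ZRF1 and MIDA1 type, lay at IV:6585435-6585778 and had a signal of 59.8, with 32.7 and 25.1. It was 264 bp upstream of dnj-11 and 207 bp from F38A5.2. The auxilin-type gene dnj-25, for clathrin uncoating, had a pooled summit of 10.7 and one in the replicate 1 list, but none in the replicate 2 list.

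The remaining 17 dnj genes were given no role here, and 3 of them were bound. At dnj-9 the peak II:4851650-4851993 had a signal of 118.6 and rank 187, with 69.0 and 48.7 in replicates 1 and 2. Its summit was 234 bp upstream, in no other coding window. At dnj-22 the peak V:8462096-8462439 had a signal of 48.3, with 33.7 and 14.2, and the start of natc-1 was nearer (91 bp against 148 bp). At dnj-28 the peak I:2996228-2996571 had a signal of 36.3, with 28.0 and 10.3, and was also in the window of supr-1. The dnj-28 peak was the most uneven of the 14 between replicates, at 2.70 times more signal in replicate 1. It ranked 3313 in the replicate 2 list, where a stronger peak of 14.1 lay 381 bp upstream of the gene.

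Between replicates, 13 of the 14 peaks had the higher signal in replicate 1 and 1 had it in replicate 2. Of the IDR-thresholded peaks overlapped in both replicate lists, 20.3% were higher in replicate 2. The median ratio of replicate 1 to replicate 2 was 1.46 at the chaperone genes and 1.38 over all peaks, and each list has its own scale. All 14 were among the 2305 strongest peaks of replicate 1, and all but the peak of dnj-28 among those of replicate 2. The median distance between replicate summits was 17 bp at the chaperone genes and 26 bp over all peaks. The same control alignment served for both, so the replicates are not independent in that respect.

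**Figure D3:**
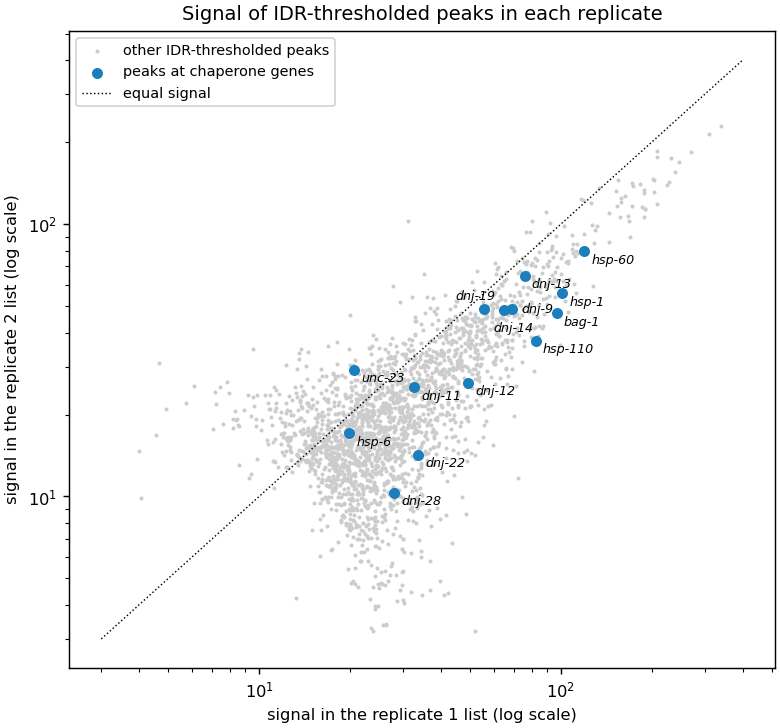
Each point is an IDR-thresholded peak with an overlapping peak in both replicate lists, plotted with its signal in replicate 1 on the x axis and in replicate 2 on the y axis, both on log scales. The 14 chaperone peaks are blue and named, other peaks grey, and the dotted line marks equal signal. Of the blue points, unc-23 lies above the line and the other 13 lie below it.

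Most of these peaks were shared with a coding gene on the opposite strand. Of the 14, 10 were in the promoter window of another coding gene as well, and in each of the 10 that gene was on the opposite strand. Over all pairs of a gene and a peak shared with exactly 1 other gene, 93.5% had it on the opposite strand, so this arrangement is the usual one. Of all 1714 pairs of a gene and a promoter peak, 764 were shared with exactly 1 other gene, as were the 10. Counted once per peak, 408 of the 1278 promoter peaks (31.9%) were in more than 1 coding window. That share has another unit than the 10 of 14, because a shared peak enters once per gene among the pairs. The chaperone gene was the nearest coding start in 7 of 14, against 73.7% of all 1714 pairs of a gene and a promoter peak. The 7 were hsp-1, bag-1, unc-23, dnj-9, dnj-12, dnj-13 and dnj-28. Counting only the nearest start therefore leaves 7 of 37 chaperone genes bound, against 6.25% of all protein-coding genes. In 6 of the 14 the start of a non-coding RNA gene was also nearer than that of the chaperone gene, against 14.2% of all pairs. Besides F26D10.23 at hsp-1 these were F54D5.22 at dnj-13, C30C11.14 at hsp-110, DL2.1 and DL2.2 at dnj-14, C24G6.10 and C24G6.12 at dnj-19, and C37H5.15 and C37H5.16 at hsp-6. Which gene of a pair a peak belongs to cannot be told apart from its position. The summits lay 24 to 621 bp upstream with a median of 246 bp, against 246.5 bp over all pairs.

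The 23 chaperone genes without an IDR-thresholded peak were searched in the pooled list and both replicate lists, which also hold weak peaks and background. Of these, 12 had a summit in at least 1 of the 3 lists (52.2%), against 51.8% of all genes without an IDR-thresholded peak, which is near the background. All 3 lists had a summit in 8 genes (34.8%), against 17.1%, and the pooled list had one in 9 (39.1%), against 27.6%. The strongest was at dnj-1 (pooled signal 24.4, replicates 14.1 and 6.39), followed by dnj-5 (18.8), dnj-7 (18.6), dnj-24 (16.495), dnj-29 (12.18), dnj-10 (11.7), dnj-25 (10.7), dnj-4 (10.6) and dnj-20 (9.12). A summit was found in 1 replicate list alone at dnj-3 (4.86, replicate 1), dnj-17 (5.49, replicate 1) and dnj-16 (5.94, replicate 2). The other 11 had none. They were hsf-1, hsp-70, the ERdj5-type gene dnj-27, dnj-21 of the mitochondrial import motor, and dnj-2, dnj-8, dnj-15, dnj-18, dnj-23, dnj-26 and dnj-30.

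The genes listed for J proteins of the endoplasmic reticulum were dnj-7 (P58IPK type), dnj-29 (SEC63 type), dnj-20 (ERdj3 type) and dnj-27. All but dnj-27 thus had summits in the lists that also hold background, and dnj-27 had none. Of all genes without an IDR-thresholded peak, 51.8% had a summit in at least 1 of these lists. The pooled −log10 q-values were 1.41 at dnj-7, 0.357 at dnj-29 and 0.0782 at dnj-20, so these summits do not show binding. An IDR-thresholded peak of signal 50.4 lay in an intron of dnj-20 at II:9619351-9619694, 4653 bp downstream of its start. Another of signal 32.5 lay in an intron of dnj-16 at III:4191278-4191621, 309 bp downstream. Both are in the promoter window of a further annotated transcript start of the gene, and with every transcript start counted 16 of the 37 genes are bound, against 9.06% of all protein-coding genes. For hsf-1 the nearest IDR-thresholded summit was 15724 bp away, and the nearest summit of any list was 814 bp away.

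The window of dnj-23 lay wholly in a stretch around jun-1 that holds no peak in any list. In the replicate 2 list it spanned 39600 bp at II:9099430-9139029 and held 8 protein-coding genes. Whether a peak could have been called there was not tested. Without dnj-23, 14 of 36 chaperone genes are bound.

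**Figure D4:**
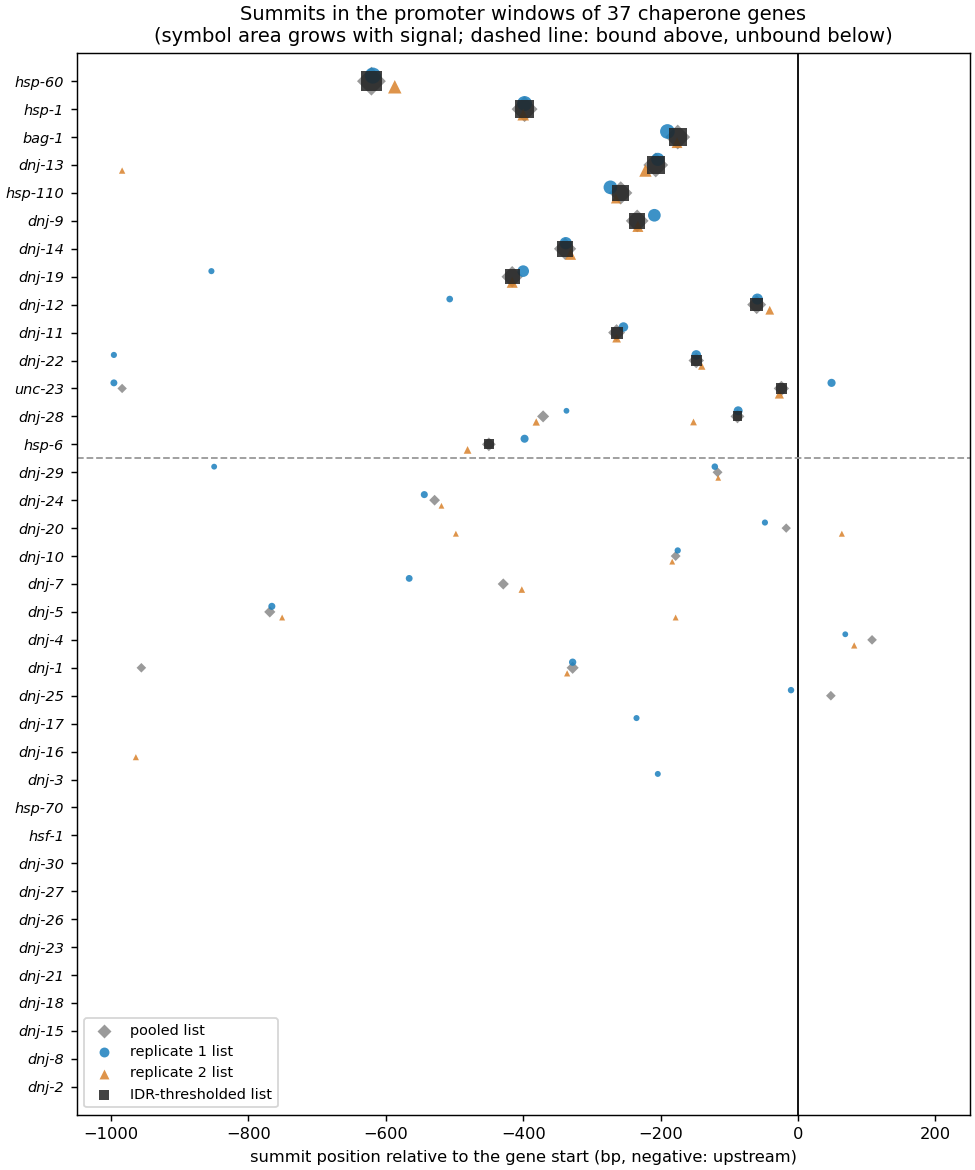
Each row is 1 of the 37 chaperone genes and the x axis is the summit position relative to the gene start in bp, with negative values upstream. Black squares are the IDR-thresholded list, grey diamonds the pooled list, blue circles replicate 1 and orange triangles replicate 2, with an area that grows with signal. The 14 bound genes stand above the dashed line, and 11 of the 23 genes below it have no symbol.

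Heat shock elements of the form TTCNNGAA were commoner around the summits of the chaperone peaks than around those of all promoter peaks. None of the 14 summit windows at chaperone genes held an AP-1 element. Motifs were sought on both strands of the 200 bp summit windows, and a match is a description of the letters, not of binding. The element TTCNNGAA was in 5 of 14 windows (35.7%), against 8.37% of promoter peaks and 7.38% of all peaks. Those 5 belong to hsp-60, hsp-110, bag-1, dnj-12 and unc-23. A 3-unit heat shock element, which contains TTCNNGAA and one more unit, was in the first 4 of these (28.6%), against 1.41% of promoter peaks and 1.21% of all peaks. The middle of the 3-unit element was 27 bp from the summit at hsp-110, 21 bp at dnj-12, 66 bp at bag-1 and 70 bp at hsp-60. Another 3-unit element at hsp-110 was 149 bp from the summit, inside the peak but outside the 200 bp window. At hsp-60 the element lay just outside the called peak, at III:1619045-1619057. No test was made, and in 100 bp windows TTCNNGAA was in 2 of the 14 (14.3%), against 3.44% of promoter peaks. The contrast was smaller in wider stretches. In 400 bp windows TTCNNGAA was in 6 (42.9%), against 20.2%, and in the whole peak interval in 5 (35.7%), against 16.3%.

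The AP-1 element, TGACTCA or TGAGTCA, was in 0 of 14 windows, against 4.38% of promoter peaks, and the CRE element TGACGTCA in 0 of 14, against 1.64%. GAGAGAGA was in 2 (hsp-1 and dnj-13), against 8.84%, and CTGCGTCTC in 1 (unc-23), against 13.5%. The forkhead element TGTTTAC was in 1 (dnj-22), against 3.60%, and the SKN-1 core TGTCAT in 1 (dnj-9), against 9.15%. The GATA element TGATAA was in 2 (dnj-22 and hsp-1), against 16.6%, and the E-box CACGTG in 0, against 5.71%. With 14 windows, shares of a few percent among promoter peaks correspond to less than 1 window, so a count of 0 for AP-1 or CRE does not set these windows apart.

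**Figure D5:**
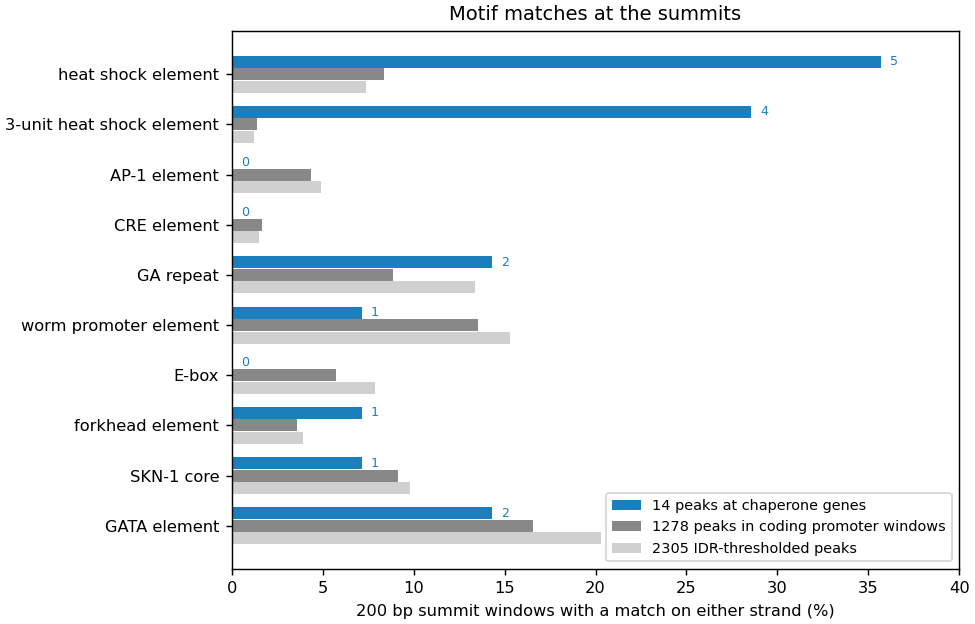
Bars give the percentage of 200 bp summit windows that hold each element on either strand, for the 14 chaperone peaks (blue, with the number of windows), the 1278 peaks in coding promoter windows (dark grey) and all 2305 peaks (light grey). The heat shock element (TTCNNGAA) and its 3-unit form stand at 35.7% and 28.6% in blue, and AP-1 and CRE at 0.

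In the whole promoter windows, TTCNNGAA was in 25 of the 37 chaperone genes (67.6%), against 57.9% of all protein-coding genes. It was in 9 of the 14 bound and in 16 of the 23 unbound chaperone genes. The 3-unit element was in 9 of the 37 (24.3%), against 7.68% of all protein-coding genes. Of those 9, 7 were bound (dnj-12, dnj-13, bag-1, hsp-1, hsp-6, hsp-60 and hsp-110), and dnj-24 and hsp-70 were not. Of the 28 chaperone genes without the 3-unit element, 7 were bound. Over all protein-coding genes the shares bound were nearly alike, at 9.0% of the 1534 genes with the element and 8.37% of those without it. The element was not always near the summit, being 149 bp away at hsp-6, 196 bp at dnj-13 and 260 and 499 bp at hsp-1. At hsp-70 it was 67 bp upstream of the start, with no summit of any list in the window. The AP-1 element was in 5 of the 37 promoter windows (13.5%), near the 11.7% of all protein-coding genes. These 5 belong to unbound genes, namely dnj-2, dnj-4, dnj-8, dnj-18 and dnj-30.

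Related chaperone genes outside the group were bound in part, and the counts below stand beside 8.42% of all protein-coding genes. Of 8 further HSP70-type genes, 4 were bound. These were hsp-3, the BiP gene of the endoplasmic reticulum (170.8), the divergent heat-inducible pair F44E5.4 and F44E5.5, which share a peak of 108.8, and stc-1 (36.4, nearer F54C9.3). The pair consists of near-identical copies, so reads may be assigned to either uncertainly. The other BiP gene, hsp-4, was not bound. RefSeq does not annotate F11F1.1 as an HSP70 gene, and without it the count is 4 of 7. The list of HSP90 and its cochaperones, without daf-21, had 4 of 9 bound. These were enpl-1 (91.4), sti-1 (91.2), daf-41 (33.1, nearer toc-1) and unc-45 (32.6). Prefoldin, which passes nascent actin and tubulin to the cytosolic chaperonin, had 3 of 6 bound, namely pfd-1 (112.1, nearer F01G4.6), pfd-6 (77.8) and pfd-3 (43.1). Of 12 small heat shock protein genes, sip-1 (66.7, nearer sly-1) was bound, a share of 8.33% that is near the 8.42% of all protein-coding genes. None of the 3 genes for inhibitors of HSF-1 (hsb-1, ddl-1 and ddl-2) was bound. A count of 0 of 3 does not set them apart from that share. The names daf-21, hsp-16.11 and hsp-16.49 matched no gene name of the annotation and were not counted. Their genes may stand there under other names, so the HSP90 and small heat shock counts may leave out bound genes.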

How the data were processed

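ChIP-seq of eGFP-tagged JUN-1 was deposited as peak lists for 2 biological replicates of 1 group. Per the deposited notes, each replicate and the pooled replicates were called against 1 shared control alignment, and the IDR-thresholded list was derived from these. The peak signal and the −log10 q-value per peak are the authors' own deposited values. The sources used here name no peak caller, aligner, IDR cutoff or signal scale, and without read counts the depth is unknown and no single peak has a counting error. The fragment size range is 150 to 350 bp per the labels.

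The ce11 lists were used with Ensembl release 115 genes and the RefSeq copy of WBcel235, whose chromosome lengths hold every peak; the ce10 copies were not used. Summits were assigned to every protein-coding promoter window from 1000 bp upstream to 200 bp downstream of the gene start. The assignment was tested on simulated data. Replicate values are those of the overlapping peak (by at least 1 bp) with the nearest summit. Shares carry 95% Wilson intervals, and no p-value was computed. Alternatives were other windows, the nearest start only, every transcript start, any base of a peak, stronger peaks, each replicate alone, and other motif windows. Python 3.11.15, scipy 1.17.1 and matplotlib 3.10.9 were used. The members, lists, motifs and rules were chosen with earlier results of these data known. The text names every member, the genes that share or lie nearer its peak, all bound genes of each further chaperone list up to 5, and the summit windows of the strongest member peaks, or of those with a heat shock element, that may be shown.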

Additional observations from a re-analysis of the deposited data

How the results depend on the processing

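The 14 bound chaperone genes depend most on how a peak shared with an opposite-strand gene is assigned. When a summit counted for the nearest start alone, 7 genes remained bound, 4 of them dnj genes, and dnj-11, dnj-14, dnj-19, dnj-22, hsp-6, hsp-60 and hsp-110 were lost by construction. The count was 13 in the narrower window (without hsp-60), against 6.61% of all genes, and 14 in the wider one, against 11.01%. It was 12 among the stronger 1152 peaks (without dnj-28 and hsp-6), against 4.73%, 15 with any base of the peak (adding dnj-16), against 9.05%, and 16 with every transcript start, against 9.06%. Without replicate 1 and without replicate 2, where the 2305 strongest peaks of the other replicate were used, the same 14 genes were bound, against 7.98% and 8.56%. Without replicate 1, dnj-28 was bound only through a different peak, of signal 14.1 and 381 bp upstream. The median signal of 109.1 became 105 in the narrower and wider windows and with any base of the peak, 119 with the nearest start, 91.7 with every transcript start and 116 among the stronger peaks. It was 42.2 without replicate 1 and 60.4 without replicate 2, on the scale of the list left. Of the 23 unbound genes, 12 had a weaker summit, and under stricter rules 8 had one in both replicate lists (19.9% of all unbound genes), 9 in the pooled list (27.6%) and 10 among the stronger peaks of a list (31.2%). In 100 bp windows TTCNNGAA was found in 2 peaks (3.44% of promoter peaks) and CTGCGTCTC in 0 (10.9%), and in 400 bp windows CTGCGTCTC in 2 (15.1%). Fewer bases searched or more is the construction of these settings. No paired analysis was possible because there is 1 group. Unknown depth means that a weak or missing peak cannot be told from limited sequencing.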

Other observations

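The bound and unbound chaperone genes were also sorted by their upstream neighbours, a grouping prompted by these data and not tested. In C. elegans many closely spaced genes on 1 strand belong to operons, which are transcribed from a single upstream promoter, and operon annotation was not used here. A coding neighbour on the same strand ended within 200 bp upstream of dnj-2, dnj-3, dnj-4, dnj-15, dnj-18 and dnj-30, and none of these 6 was bound. Over all protein-coding genes with such a neighbour, 4.02% of 2436 were bound. Of the 20 chaperone genes whose upstream neighbour is on the opposite strand, 10 were bound, against 12.07% of 9235 such genes. Of the 11 with another neighbour on the same strand, 4 were bound (bag-1, dnj-9, hsp-1 and unc-23), against 5.64% of 8302.

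By chromosome, 3 of 10 chaperone genes were bound on I (10.9% of all protein-coding genes there), 2 of 6 on II (7.60%), 2 of 7 on III (11.9%), 2 of 6 on IV (7.95%), 4 of 6 on V (6.03%) and 1 of 2 on X (8.35%).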
